A study of Mus musculus with 2 samples.

Results

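The miR-30 family was followed through 7 probes of a microRNA array, which read 5 strands from the 5′ arm of the hairpin (miR-30a-5p, miR-30b, miR-30c, miR-30d and miR-30e-5p) and 2 from the 3′ arm (miR-30a-3p and miR-30e-3p). On the array the probes are named miR_30a_5p, miR_30b, miR_30c, miR_30d, miR_30e_5p, miR_30a_3p and miR_30e_3p. The members were chosen by name, with 1 probe for each, out of 256 mouse miRNAs on the array. Every member's probe carried a human prefix. The cells were C3H10T1/2, a mouse embryo line with the potential to form fat, bone and cartilage, and no further genotype or agent is named in the labels. Cells in the BMP7 group received BMP7, a bone morphogenetic protein that signals through SMAD proteins, at 3.3 nM over 3 days, and cells in the vehicle group received the vehicle over 3 days. The study asked which miRNAs BMP7 regulates. Total RNA labelled with the dye Cy3 was put on 1 array for each group, so every difference below is between 2 arrays, has no replicate check and carries no p-value. Each probe was printed in 4 spots, and the errors are SDs or standard errors (SE) over them (n = 4 spots on each array). They cover the spread within an array only.

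A miRNA hairpin yields a strand from each arm, and the strand held by an Argonaute protein finds target mRNAs through its seed, bases 2 to 8. The 5′ strands of the miR-30 family share a seed and so, as background, much of their target range. In mesenchymal cells these strands are known to favour fat cell formation and to hold back bone formation, with RUNX2, the transcription factor of early bone cells, and the BMP effector SMAD1 among their known targets. The 3′ strands carry another seed.

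The mature mouse sequences are shown because they set which miRNAs a probe could read in common. They come from RefSeq, build GRCm38.p6, are written 5′ to 3′ and have the seed in capitals.
miR-30a-5p: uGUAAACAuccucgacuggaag
miR-30c: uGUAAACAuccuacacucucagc
miR-30e-5p: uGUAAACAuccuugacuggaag
miR-30a-3p: cUUUCAGUcggauguuugcagc
miR-30e-3p: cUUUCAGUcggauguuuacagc

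Of the 7 members, 5 were matched to this source; miR-30b and miR-30d are named only. MiR-30a-5p and miR-30e-5p differ at 1 of 22 bases, written C13U with positions counted from 1 at the 5′ end of miR-30a-5p. MiR-30a-3p and miR-30e-3p also differ at 1 of 22 bases, G18A by the same count from miR-30a-3p. MiR-30c differs from each of these 5′ strands at 5 of the 22 bases compared. Such near-identical strands may bind each other's probes, so the values below belong to probes rather than to strands that can be told apart.

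In build GRCm38.p6 miR-30a-5p lies at chr1:23272274-23272295 and miR-30a-3p at chr1:23272315-23272336, both on the plus strand. The same miR-30c sequence is made from 2 genes, at chr1:23291714-23291736 on the plus strand and at chr4:120769584-120769606 on the minus strand. MiR-30e-5p lies at chr4:120772660-120772681 and miR-30e-3p at chr4:120772618-120772639, on the minus strand. Both chromosome 4 genes lie inside the span of Nfyc, which codes for a subunit of the transcription factor NF-Y. The genes of miR-30b and miR-30d neighbour each other on chromosome 15. Exon boundaries were not in the table used here, and the array design's own build was not given in the sources used here.

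The Cy3 channel's laser power was 3.17 with BMP7 and 2.45 with vehicle, while the Cy3 control spots had medians of 29939.5 and 35681.5 intensity units. Uncorrected brightness is given below without adjustment for either. On both arrays the Cy3 signal was weak against the surroundings of the spots. The brightness around a spot, its local background, had a median of 4650 intensity units with BMP7 and 3756 with vehicle, and 63.9% and 44.5% of the spots other than controls lay below their own. A spot was counted as passing when it exceeded its local background by 2 SDs of the local backgrounds on its array, a mark of 947 units (BMP7) and 1152 units (vehicle). Detection asked for 2 or more passing spots of the 4. All 7 mesenchymal miRNAs taken as markers were detected on the vehicle array and 6 of 7 on the BMP7 array. Of the markers of other cells, 1 of 6 blood probes was detected on each array, while 1 of 6 epithelial and 1 of 3 liver probes were detected on the vehicle array only. None of 3 muscle and 4 neuron probes was detected on either array. The marker lists were chosen with earlier results of these data known, so they are no independent check of the cells.

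Of the 7 miR-30 strands, only the 2 strands of miR-30a were detected, and each on a different array. MiR-30a-5p was detected with BMP7 and not with vehicle, and miR-30a-3p with vehicle and not with BMP7. This made 1 of 7 on the BMP7 array, where 16% of all mouse miRNAs were detected, and 1 of 7 on the vehicle array, where 22.7% were. Over both arrays 25.4% of mouse miRNAs were detected at least once, so 2 of 7 is close to the share for the array. On 1 array only, 12.1% were detected. With the mark at 1 SD both miR-30a strands were detected on both arrays, and with the mark at 3 SDs on neither. Of the 256 mouse miRNAs, 108 were detected on 1 or both arrays at 1 SD and 40 at 3 SDs. The miR-30b, miR-30c, miR-30d, miR-30e-5p and miR-30e-3p probes were detected on neither array.

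**Figure D1:**
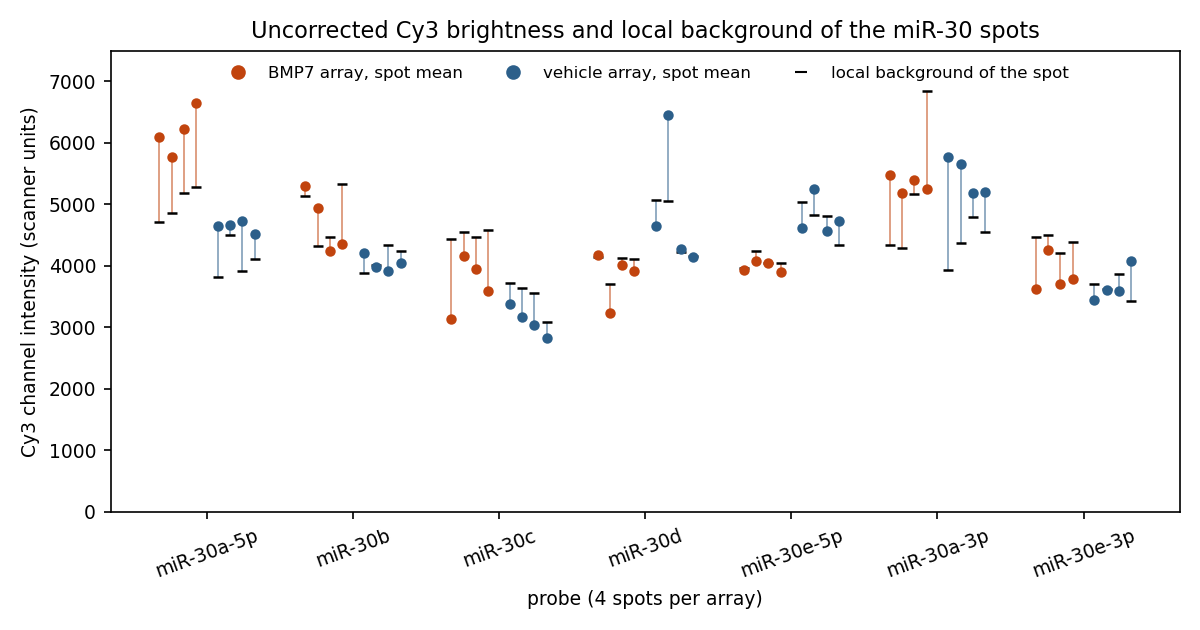
Uncorrected Cy3 intensity in scanner units (dots, 4 spots per array) and the local background of each spot (black dashes) for the 7 miR-30 probes, with the BMP7 array in red and the vehicle array in blue. The miR-30a-5p spots stand above their backgrounds on both arrays, by 921 to 1383 units with BMP7 and by 161 to 832 with vehicle, while the 4 miR-30c spots lie below theirs on both.

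MiR-30a-5p, the 5′ strand of the Mir30a hairpin, passed in 3 of 4 spots with BMP7 and in none with vehicle. Its 4 spots on the BMP7 array read 6090, 5775, 6222 and 6653 intensity units over local backgrounds of 4707, 4854, 5191 and 5288. On the vehicle array they read 4654, 4668, 4725 and 4519 over 3822, 4507, 3925 and 4113. All BMP7 spots were brighter than all vehicle spots, and their local backgrounds were all higher as well, as for 66% of all mouse miRNAs. After subtraction the BMP7 spots stood 1383, 921, 1031 and 1365 units over background and the vehicle spots 832, 161, 800 and 406, so the arrays still did not overlap. The mean excess was 1175 ± 234 units with BMP7 and 549.75 ± 324 with vehicle (SD, n = 4 spots each). In SDs of the background the lowest BMP7 spot was at 1.95 and the highest vehicle spot at 1.44.

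After background correction and quantile normalization, which gives both arrays the same distribution of values, the log2 levels of miR-30a-5p were 11.59, 11.35, 11.43 and 11.58 with BMP7 and 10.99, 10.43, 10.96 and 10.66 with vehicle. The BMP7 spots were again all above the vehicle spots. The means were 11.49 ± 0.12 and 10.76 ± 0.27 (SD), a log2 difference of 0.73 ± 0.15 (SE). Since the vehicle array did not detect it, the change is given as at least 1.66-fold higher with BMP7, which sets the BMP7 mean against the higher of the vehicle mean and the lowest level of a miRNA detected there. The vehicle mean was the higher of these, so the bound equals the fitted fold. It does not allow for the spread of the spots and holds for this processing only. A fitted value of at least 2-fold higher was reached by 4.62% of the 65 miRNAs detected on 1 or both arrays, and miR-30a-5p was not among them. Spots that stood apart in this direction occurred for 18.5% of the same 65 miRNAs and for 11.7% of all 256. With no background correction the log2 difference was 0.32, and the spots still stood apart.

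The place of the probe on the array moved with this value. The array is laid out in 16 blocks, and the median log2 difference of a block's mouse miRNAs ran from -0.94 to 0.64 between blocks. The miR-30a-5p spots all lie in block 11, which held the highest median. Over the 20 other mouse miRNAs of that block the median was 0.62, 17 of them were above 0, 9 were above miR-30a-5p and 8 had all BMP7 spots above all vehicle spots. Relative to the median of its block miR-30a-5p was at 0.11, a shift smaller than its SE, and its spots then overlapped (10.73 to 10.97 with BMP7 against 10.43 to 10.99 with vehicle). What sets the blocks apart was not tested.

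**Figure D2:**
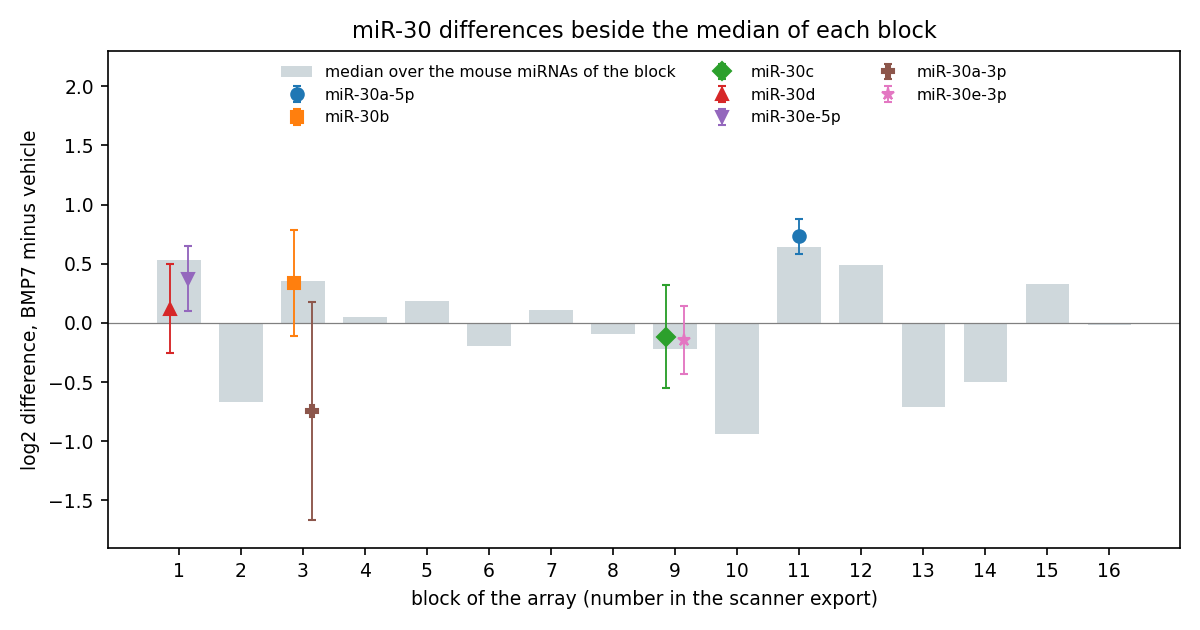
Median log2 difference (BMP7 minus vehicle) over all mouse miRNAs of each block of the array, members included (grey bars), with the 7 miR-30 strands as points at their own block and their SE over 4 spots as error bars. MiR-30a-5p at 0.73 stands in block 11, the block with the highest median at 0.64, and miR-30a-3p at -0.75 stands below a block 3 median of 0.36.

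MiR-30a-3p, cut from the other arm of the same hairpin, stood less far over its local background with BMP7 at each of its 4 places on the array, but its normalized levels were mixed. With no background correction before normalization all its BMP7 spots were lower. Its BMP7 spots read 5485, 5193, 5400 and 5250 units over local backgrounds of 4344, 4295, 5172 and 6851. Its vehicle spots read 5772, 5664, 5185 and 5198 over 3936, 4366, 4795 and 4546. The uncorrected brightness of the arrays overlapped, and the fourth BMP7 spot lay in a surround brighter than the spot itself. On both arrays the first and second spots stood further over their background than the others.

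Above background, the BMP7 spots of miR-30a-3p were at 1141, 898, 228 and -1601 units and the vehicle spots at 1836, 1298, 390 and 652. The vehicle spot was the higher at each place, though the arrays overlapped. The normalized log2 levels were 11.47, 11.33, 10.86 and 7.66 with BMP7, a mean of 10.33 ± 1.80 (SD), and 11.54, 11.27, 10.64 and 10.86 with vehicle, a mean of 11.08 ± 0.40. The log2 difference was -0.75 ± 0.92 (SE), smaller than its own error. Without the fourth spot it was 0.07, and with medians over the spots 0.03. By the rule for strands detected on 1 array, miR-30a-3p was at least 1.07-fold lower with BMP7, a bound that rests on the fourth spot. Of the 65 detected miRNAs 7.69% had fitted values at least 2-fold lower and 23.1% had all BMP7 spots below all vehicle spots, and miR-30a-3p was in neither group. Relative to its block, number 3, it was at -1.15, and all 14 other mouse miRNAs of the block were above it.

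With miR-30a-5p at 0.73 and miR-30a-3p at -0.75, the fitted values of the hairpin's strands were opposite in sign. Outside the family 23 hairpins were matched by name or gene as having both strands on the array. Of these, 5 had at least 1 strand detected and 2 had both. A probe with no gene match could not be paired by gene. The strands of these last hairpins, miR-140 and miR-199a, lay on the same side, at 0.69 ± 0.21 and 0.95 ± 0.21 for miR-140 and at 0.94 ± 0.18 and 0.85 ± 0.20 for miR-199a. None of the 23 had its strands detected on different arrays. Of the other 3 with a detected strand, let-7d and miR-24 were detected on both arrays and miR-291-5p on the vehicle array only. Each had its partner strand detected on neither array. Fitted signs were opposite for let-7d (-0.21 ± 0.09, partner 0.89 ± 0.34) and miR-291-5p (-0.76 ± 0.20, partner 0.63 ± 0.34). They were alike for miR-24 (-0.01 ± 0.16, partner -0.32 ± 0.15). Some hairpins with neither strand detected had opposite signs as well, and others had the same sign. Neither strand of miR-30e was detected. With an error of 0.92 on miR-30a-3p, the strands of miR-30a are not shown to differ.

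The remaining 5′ strands were not detected, and their spots lay on both sides of the local background or below it. MiR-30b read 5305, 4942, 4242 and 4354 units with BMP7 and 4218, 3980, 3922 and 4043 with vehicle. All its BMP7 spots were brighter, as happened for 32% of all mouse miRNAs in the uncorrected Cy3 brightness. Against their surroundings the BMP7 spots of miR-30b were at 172, 618, -227 and -982 units and the vehicle spots at 339, -39, -416 and -195, which overlapped. Its normalized levels were 10.43 ± 0.79 and 10.09 ± 0.42 (SD).

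All 4 spots of miR-30c lay below background on both arrays, with a mean excess of -799 ± 428 units with BMP7 and -395 ± 123 with vehicle (SD). The uncorrected spots read 3131, 4169, 3954 and 3590 with BMP7 and 3387, 3170, 3037 and 2829 with vehicle, and overlapped. The surroundings of all its BMP7 spots were brighter than those of all its vehicle spots. Its normalized levels were 9.54 ± 0.85 and 9.65 ± 0.20 (SD).

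MiR-30d read 4178, 3239, 4011 and 3915 units with BMP7 and 4645, 6456, 4269 and 4141 with vehicle. Its brightest vehicle spot was the only miR-30d spot to pass the detection mark, at 2.44 SDs, and the other 3 vehicle spots lay between -0.75 and 0.07. MiR-30e-5p read 3931, 4074, 4042 and 3897 with BMP7 and 4613, 5248, 4572 and 4727 with vehicle, so every uncorrected BMP7 spot was dimmer, as for 7.81% of mouse miRNAs. Its local backgrounds moved in the same way, from 3965 to 4250 with BMP7 and from 4344 to 5042 with vehicle.

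Both of these probes sit in block 1. Over the 18 other mouse miRNAs of that block the median BMP7 minus vehicle difference of the local background was -37.6 units, and 10 of them had a lower background with BMP7. The same difference was -603 units for miR-30d and -675 units for miR-30e-5p, against a median of 881 units over all mouse miRNAs. Only 1.17% of mouse miRNAs had all 4 local backgrounds lower with BMP7, and miR-30d and miR-30e-5p were among these 3. After correction miR-30d was at 0.12 ± 0.38 and miR-30e-5p at 0.38 ± 0.27 on the log2 scale (SE), while uncorrected levels put them at -0.47 and -0.40. Over all mouse miRNAs the sign turned between those settings for 34%. Neither probe was well above background on either array, so no fold is given for them, nor for miR-30b, miR-30c or miR-30e-3p.

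MiR-30e-3p, the other 3′ strand, read 3627, 4265, 3701 and 3790 units with BMP7 and 3449, 3606, 3600 and 4072 with vehicle, and the arrays overlapped. All 4 BMP7 spots lay below their background and 3 of the 4 vehicle spots did. The normalized levels were 10.05 ± 0.34 and 10.20 ± 0.47 (SD).

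**Figure D3:**
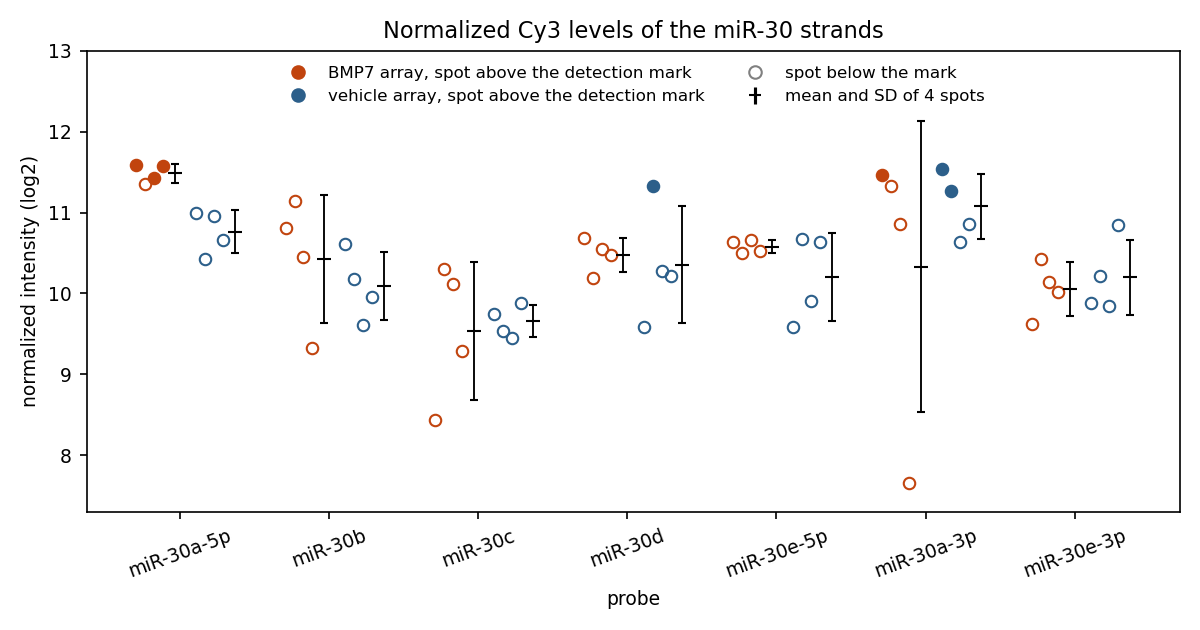
Normalized log2 intensity of every spot of the 7 miR-30 probes, BMP7 in red and vehicle in blue, with the mean and SD of the 4 spots beside them in black; filled dots exceeded the detection mark of 2 SDs over background. Filled dots number 3 for miR-30a-5p with BMP7, 1 and 2 for miR-30a-3p with BMP7 and vehicle, and 1 for miR-30d with vehicle.

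Over all 7 strands, detected or not, the median log2 difference was 0.12, with 4 above 0 and 3 below, against a median of -0.03 and 49.2% above 0 for all 256 mouse miRNAs. Since 5 of the 7 values come from spots at background, this median describes the probes and not levels of the strands. The 5 strands of the 5′ arm had a median of 0.34 and 4 values above 0, and both 3′ strands were below 0. This split did not hold in every setting. Without the fourth spot, and with medians over the spots, all 7 strands were above 0. Only for miR-30a-5p did the normalized spots of the arrays stand apart, which is 1 of 7 in the upward direction beside 11.7% of all mouse miRNAs, and 0 of 7 stood apart downward beside 13.3%. None of the 7 fitted values reached 2-fold in either direction, as 5.86% of all mouse miRNAs did upward and 5.86% downward. Relative to the medians of their blocks, 3 strands were above 0 and 4 below, with a median of -0.07, and no strand kept its spots apart. Levels of different probes are not ranked, because probes bind with different strength.

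The second channel of the scans gave other values. Its content was not given in the sources used here. MiR-30a-5p read 3872, 4013, 5271 and 5356 units there with BMP7 and 3936, 3982, 5155 and 4635 with vehicle, and the arrays overlapped. MiR-30a-3p read 3948, 3881, 4299 and 4769 with BMP7 and 5678, 5487, 4895 and 5798 with vehicle, all lower with BMP7. The spots of miR-30c (1777 to 1994 against 2247 to 2364) and of miR-30d (5256 to 5759 against 7251 to 8441) were also all lower with BMP7. That makes 3 of 7 strands, beside 36.7% of all mouse miRNAs in this channel, and no strand was higher in all spots, as 7.03% were. MiR-30e-5p was dim in it on both arrays, at 470 to 571 with BMP7 and 529 to 689 with vehicle, and overlapped.

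In the authors' deposited table all 7 strands were higher with BMP7, as were 92.6% of its 339 array probes, and none reached 2-fold, as 7.67% did. The values of the authors' deposited table could be rebuilt as the Cy3 brightness over the second channel's brightness, relative to the same ratio in the spots named Control_1, with no background subtraction. The folds of the authors' deposited table were 1.75 for miR-30b, 1.71 for miR-30c, 1.49 for miR-30a-5p, 1.48 for miR-30a-3p, 1.29 for miR-30e-3p, 1.28 for miR-30d and 1.04 for miR-30e-5p. The median fold of all its array probes was 1.46, and 4 of the 7 strands lay above it. MiR-30a-5p and miR-30a-3p, which differ in sign in the corrected Cy3 channel, stood next to that median in the authors' deposited table, at ranks 151 and 157 from the highest fold.

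The parts of that ratio differed between the strands. For miR-30a-5p the uncorrected Cy3 mean was 1.33-fold higher with BMP7 and the second-channel mean 1.05-fold higher. For miR-30b the Cy3 mean was 1.17-fold and the second-channel mean 0.801-fold that of vehicle, and for miR-30c they were 1.19-fold and 0.815-fold. For miR-30d both were below 1, at 0.786-fold and 0.719-fold, and for miR-30a-3p they were 0.977-fold and 0.773-fold. The Control_1 spots added a factor of 1.17 to every fold of the authors' deposited table. In 3 of the 7 strands, miR-30d, miR-30e-5p and miR-30a-3p, a fold above 1 in the authors' deposited table thus stood beside a Cy3 mean lower with BMP7. No strand of the family is in that table's customized panel of 16 miRNAs.

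**Figure D4:**
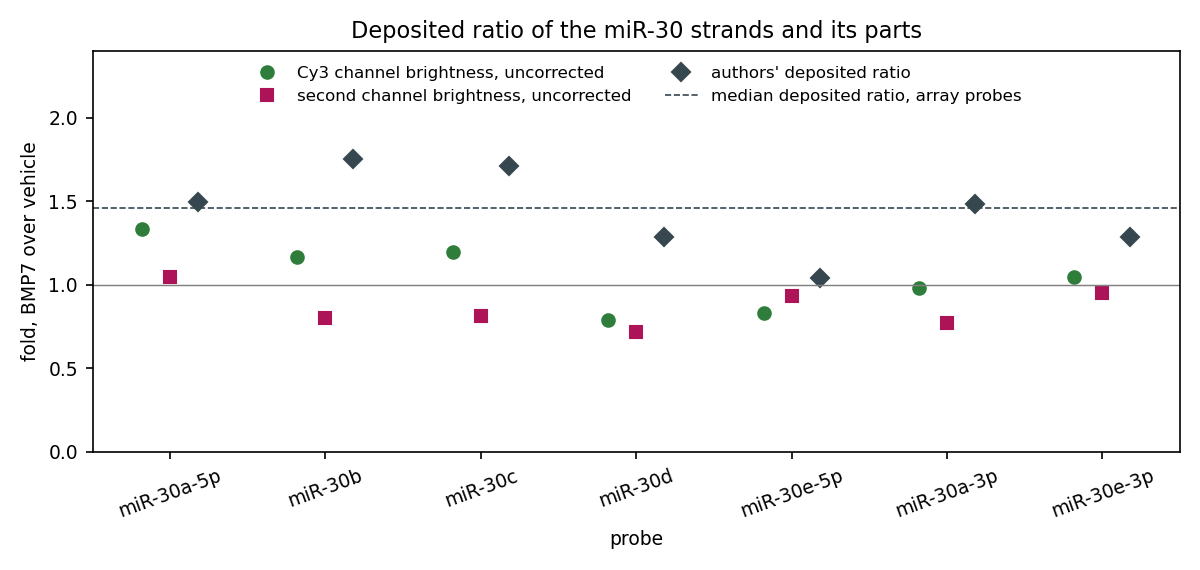
Fold, BMP7 over vehicle, of the uncorrected Cy3 brightness (green circles), the uncorrected second channel's brightness (magenta squares) and the ratio in the authors' deposited table (grey diamonds) for each miR-30 strand. The deposited folds run from 1.04 to 1.75 around the dashed median of 1.46, while 3 strands have a Cy3 fold below 1.

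The miRNAs whose pair of levels lay nearest to that of miR-30a-5p were miR-490, miR-92 and miR-505, at distances of 0.08, 0.08 and 0.13 on the log2 scale over 2 arrays. Their differences were 0.62 ± 0.24, 0.66 ± 0.22 and 0.56 ± 0.21 (SE). MiR-490 and miR-505 lie in block 12, with a block median of 0.49, and miR-92 in block 16, with a block median of -0.02. MiR-92 and miR-505 were detected with BMP7 only, with spots apart for miR-92 and overlapping for miR-505. MiR-490 was detected on neither array.

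Beside the family stood other miRNAs known to promote adipogenesis, of which 12 of 13 were on the array. On 1 or both arrays 6 of the 12 were detected, beside 25.4% of all mouse miRNAs. Their median over all 12 was 0.16, with 7 above 0, against -0.03 and 49.2% above 0 for all mouse miRNAs. All BMP7 spots were above all vehicle spots for 3 of the 12, beside 11.7% of all mouse miRNAs. These were miR-21, miR-92 and a miRNA detected on neither array. MiR-92, detected with BMP7 only, was at 0.66 ± 0.22. MiR-21 was at 0.31 ± 0.12 and miR-103 at -0.08 ± 0.52, while miR-378, detected with BMP7 only, was at 0.45 ± 0.36 and miR-107, detected with vehicle only, at -0.15 ± 0.29, both with overlapping spots. MiR-143 was detected with vehicle only and has no fold. Of 10 other miRNAs known to act on Runx2, only miR-23a was detected, at 0.29 ± 0.08, beside the same 25.4%. Over all 10 the median was 0.23, with 6 above 0.

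**Figure D5:**
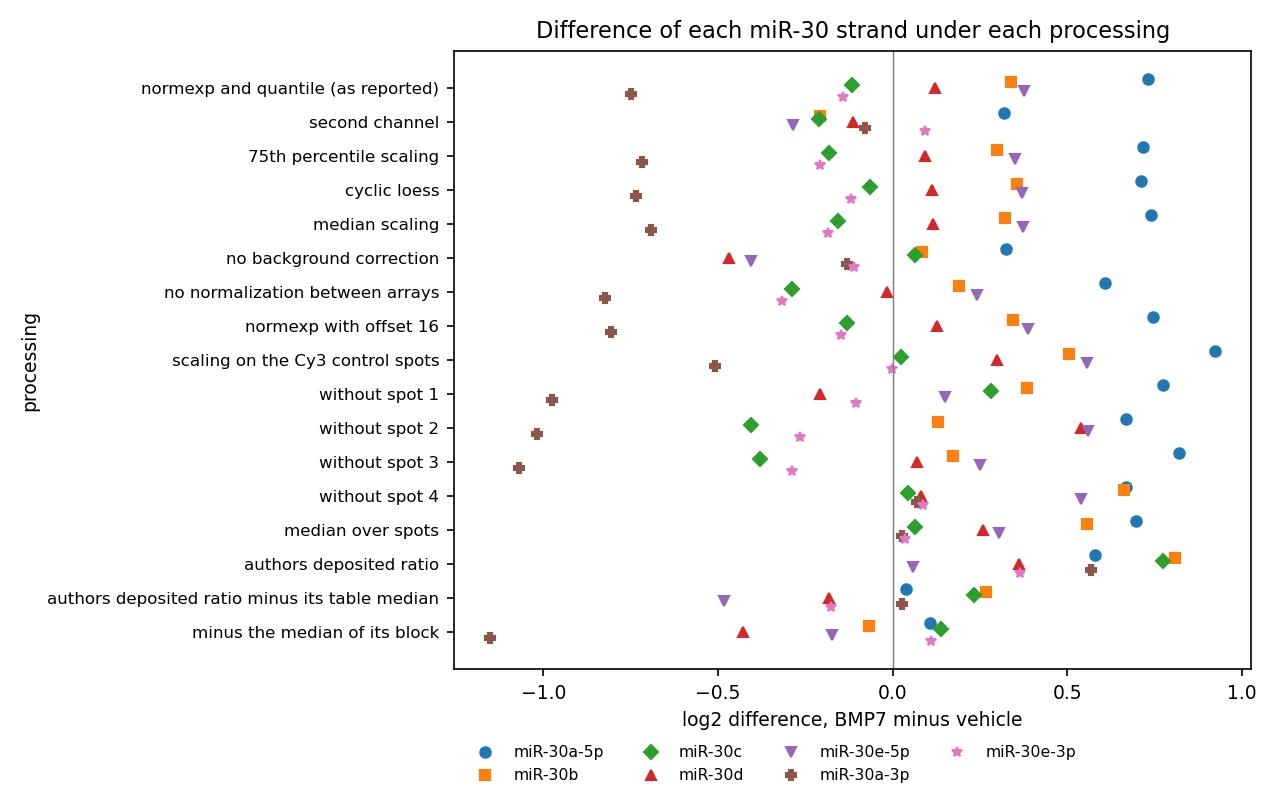
Log2 difference (BMP7 minus vehicle) of each miR-30 strand under each processing, 1 row of symbols per setting; plain background subtraction is left out because values at its floor stretch the axis. MiR-30a-5p lies right of 0 in every row, from 0.04 to 0.92, while each of the other strands crosses 0.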

How the data were processed

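The members and lists were chosen with earlier results of these data known. Per the labels' protocols, total RNA was given a poly(A) tail and labelled with Cy3. Per the file headers, the exports were made with GenePix Pro 5.1.0.19 and hold the intensity of each spot as a mean over pixels, neither normalized nor background-subtracted. The Cy3 channel's laser power was 3.17 with BMP7 and 2.45 with vehicle. The local background was solved from the score columns, which per the file headers are the sum and ratio of the background-subtracted means (all 28 spots of the family on each array). The authors' deposited ratio was rebuilt within 0.1% for 336 and 337 of 339 probes on the BMP7 and vehicle arrays; other steps behind it were not given in the sources used here.

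Background correction of the Cy3 intensity used limma 3.58.1 (R 4.3.3) and its normexp method with an offset of 50. Values were then quantile normalized without control spots and averaged as log2 over 4 spots. Tables used Python 3.11.15, numpy 2.4.6 and pandas 2.3.3. The steps were tested on simulated arrays built from the vehicle array. Those arrays shared their local backgrounds, and only probes well above background were changed. The test therefore says nothing on probes at background or on shifts between blocks. No test across samples was possible with 1 array a group. Named miRNAs are the 7 members, the 3 nearest to miR-30a-5p, strand pairs and listed miRNAs with a detected strand. Names were matched to mouse genes by a RefSeq table (GRCm38.p6).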

Additional observations from a re-analysis of the deposited data

Results flagged for a closer look

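Every spot of all 7 miR-30 probes was brighter in the second channel than any Control_1 spot of the same array, with BMP7 and with vehicle alike. What that channel holds was not given in the sources used here. The same was found for 241 of the 256 mouse miRNA probes. It is listed because the second channel lies outside the comparison of the Cy3 levels.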

How the results depend on the processing

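No paired analysis was possible because each group has 1 array. The low signal over background limits every value, and the cause of these shifts was not tested. Block medians and centring on the deposited median were added after the data had been seen. Of 119 alternative values of single strands, 87 kept their sign: 17 of 17 for miR-30a-5p (0.04 to 3.92), 15 for miR-30b, 13 for miR-30a-3p, 12 each for miR-30e-5p and miR-30e-3p, 10 for miR-30d and 8 for miR-30c. The value of 3.92 came from plain subtraction with a floor of 1.

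The median over the strands, 0.12, was -1.08 with plain subtraction and 0.57 in the authors' deposited table. It was below 0 with no background correction (-0.11), in the second channel (-0.11), with no normalization between arrays (-0.02) and against block medians (-0.07). The median of all mouse miRNAs, -0.03 as reported, was -0.17 with no normalization, 0.15 when scaled to the Cy3 control spots and -0.19 with plain subtraction. Spots stood apart for 4 strands with no background correction (miR-30a-5p higher, with miR-30a-3p, miR-30d and miR-30e-5p lower) and for 2 with scaling on the Cy3 control spots. The shares of all mouse miRNAs under these settings are not given, so these counts are not a result about the family. In the uncorrected Cy3 brightness before normalization, spots stood apart upward for 32% of all mouse miRNAs and downward for 7.81%. At 3 SDs, 0 strands were detected with BMP7, 0 with vehicle and 0 in all, beside 27, 37 and 40 of the 256 mouse miRNAs. At 1 SD, 2 strands were detected with BMP7, 2 with vehicle and 2 in all, beside 67, 94 and 108. At 1 of 4 spots these counts were 2, 2 and 3, beside 69, 83 and 102. Asking for 3 of 4 spots left 1 in all, miR-30a-5p, and 0 on the vehicle array, beside 43 and 38 of the 256.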
